A study of Mus musculus with 4 samples.

Results

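Epithelial and mesenchymal cells of the embryonic mouse submandibular gland, the salivary gland under the lower jaw, were compared by single-cell RNA sequencing. The glands came from ICR embryos at embryonic day 12, and about 10 glands were pooled, per the labels' protocols. Dispase loosened the epithelium from the mesenchyme, each tissue was dissociated with a cold protease, and each gave 1 library of 10x Chromium droplets. No embryo carried an engineered allele or a treatment in the labels, and the sex of the embryos is not given in the sources used here. The cells were chosen by measured values. A barcode was kept if it had 500 genes or more and no more than 10% of its UMIs from mitochondrial genes (UMIs are unique molecular identifiers, each marking 1 captured RNA molecule). Epithelial cells were barcodes of the epithelium library with at least 1 Epcam UMI and 0 UMIs of Pdgfra and Col3a1. Mesenchymal cells were barcodes of the mesenchyme library with at least 2 UMIs of Pdgfra and Col3a1 together, 0 of Epcam, and under 20% haemoglobin UMIs. This gave 3549 epithelial cells and 3406 mesenchymal cells, 6955 in all, of 8867 barcodes in the 2 submandibular libraries and 15351 in the series, whose other 2 libraries hold the parotid gland. With 1 library a side there were no replicates and no test. Each ratio below is given with an exact 95% interval that covers counting error only, not differences between embryos, litters or dissections.

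At this stage the submandibular gland is an epithelial end bud on a stalk, surrounded by condensed mesenchyme that derives largely from the neural crest. The epithelium branches by repeated clefting, and it depends on signals from the mesenchyme. The best known are FGF10 and FGF7, which act on the receptor FGFR2 in the epithelium. The epithelium in turn sends WNT, FGF9 and PDGF ligands to the mesenchyme. A basement membrane of laminins, type IV collagen and nidogens lies between the tissues.

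The summed UMIs were 37800879 in the epithelial cells and 20542820 in the mesenchymal cells, and the median cell had 9912 and 5410 UMIs. The gated cells were 94.2% of the kept barcodes in the epithelium library and 70.3% in the mesenchyme library. The markers that the selection did not use followed the labels. Cdh1, the adherens junction cadherin of epithelia, had 42.0 CPM (UMIs of the gene per 1000000 UMIs of that side) in epithelial cells and 0 UMIs in mesenchymal cells. Col1a2, a chain of type I collagen, had 1.24 CPM in epithelial cells and 504 CPM in mesenchymal cells. After every cell was thinned to 2000 UMIs, which left out 0 cells, 11 other epithelial markers summed to more UMIs than 10 other mesenchymal markers in 3171 of 3549 epithelial cells, to fewer in 26 and to the same in 352. In the mesenchymal cells the mesenchymal sum was higher in 3333 of 3406, lower in 2 and the same in 71. The 2 libraries shared 25 barcode sequences.

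Markers of other cell types were summed on each side. Of 8 endothelial markers, 3 were at 0 in epithelial cells and 0 were at 0 in mesenchymal cells. Their summed level was 26.4 and 53.5 CPM, of which Egfl7 alone was 25.4 and 29.1 CPM. Of 8 skeletal muscle markers, 4 were at 0 in epithelial cells and their sum was 4.76 CPM, against 86.7 CPM and 0 at 0 in mesenchymal cells. Of 8 macrophage markers, 3 were at 0 in epithelial cells, and the sums were 1.11 and 13.7 CPM. The 7 neural crest and glia markers summed to 67.6 CPM in epithelial cells, of which 63.8 CPM was Ngfr, and to 42.8 CPM in mesenchymal cells. The 7 neuron markers summed to 22.2 and 65.3 CPM with 0 at 0 on either side. Isl2 alone was 20.6 CPM of this in epithelial cells, and Gap43 was 43.2 CPM in mesenchymal cells. The 7 measured cartilage markers summed to 188 and 46.9 CPM, of which Col2a1 was 97.2 CPM in epithelial cells. The cartilage markers gave 3 or more UMIs in 32.4% of epithelial cells and 1.12% of mesenchymal cells, so in the epithelial cells they were not kept to a few barcodes. The 9 erythroid markers summed to 387 CPM in epithelial cells, almost all from 1 barcode with over 20% haemoglobin UMIs. That barcode lies in the epithelial cluster with 32100 CPM, and the other 10 clusters had between 3.50 and 7.94 CPM. The sum was 874 CPM in mesenchymal cells, with 3 or more such UMIs in 81.4% of cells, where each of the 14 clusters described later had between 811 and 1076 CPM. What these RNAs contribute to a given ratio was not tested, apart from the counts without such cells given with the processing alternatives.

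The edge of each selection can be read from cells just inside and just outside it. The 279 epithelial cells with exactly 1 Epcam UMI had 3803 CPM of Krt15, and the 181 barcodes with 0 UMIs of all 3 selecting genes had 3637 CPM, against 1582 CPM in all epithelial cells. Cdh1 stood at 41.0 CPM just inside and 40.9 CPM just outside. In the mesenchyme library the 449 cells with exactly 2 UMIs of Pdgfra and Col3a1 had 357 CPM of Col1a2, the 438 barcodes with exactly 1 UMI had 249.9 CPM and the 592 with 0 had 136 CPM. Barcodes with signals of both tissues stayed out, namely 18 in the epithelium library and 273 in the mesenchyme library, and no doublet caller was run.

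Of 3445 genes with at least 50 CPM on a side, 58 (1.68%) were at least 10-fold higher in epithelial cells and 119 (3.45%) at least 10-fold higher in mesenchymal cells. At 2-fold the counts were 310 (9.0%) and 450 (13.1%), so 40.8% of the 2-fold genes were epithelial. TMM scaling, a trimmed mean of ratios, moved the median log2 ratio of all genes by 0.35, from 0.04 to 0.39, and the same split became 561 epithelial and 290 mesenchymal genes, or 65.9% epithelial. The 10-fold sets include the selecting genes Epcam, Pdgfra and Col3a1, whose values are not findings. The 10-fold limit itself keeps these genes at 10% or less on the other side, so the next values only describe them. The 53 named epithelial genes had a median of 2.59% of their epithelial CPM in mesenchymal cells, and 18 of them had under 1%. For the 115 named mesenchymal genes the median was 1.50%, and 50 had under 1%.

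**Figure D1:**
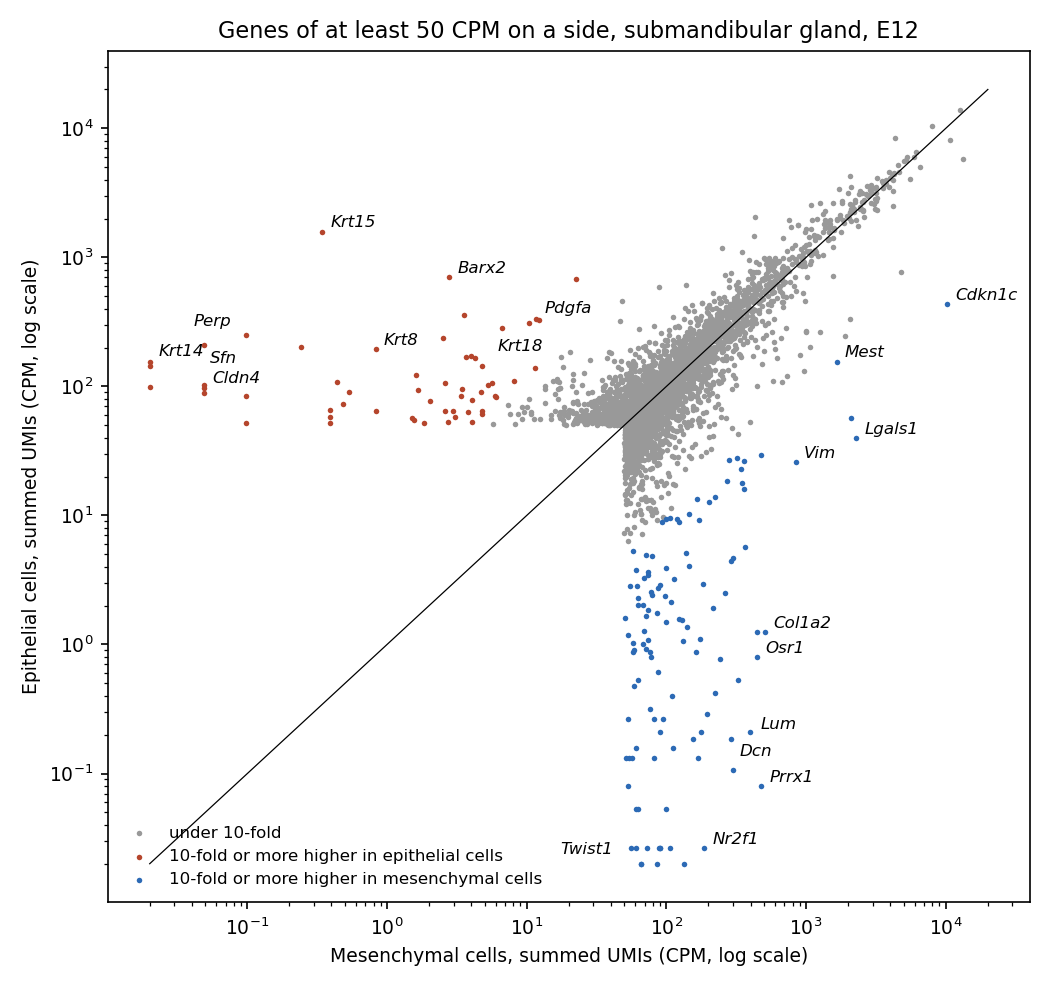
CPM of each gene with at least 50 CPM on a side, mesenchymal cells on the x axis and epithelial cells on the y axis, both log scales, with the selecting and haemoglobin genes left out. Each point is a gene, the line marks equal levels, genes at 0 are drawn at 0.02 CPM, and the red and blue points are at least 10-fold apart, such as Krt15 with 0.34 CPM in mesenchymal cells and Prrx1 with 0.08 CPM in epithelial cells.

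Keratins, the intermediate filament proteins of epithelia, were higher in epithelial cells for all 6 of the 11 listed genes that reached 20 CPM on a side, each by 10-fold or more. Across all 6383 genes at that level, 8.9% were 2-fold and 2.16% were 10-fold higher in epithelial cells, and 16.9% and 3.92% in mesenchymal cells. Krt15, which lies on chromosome 11 at 100131758 to 100135928 (mm10, minus strand), had 59792 UMIs or 1582 CPM in epithelial cells and 7 UMIs or 0.341 CPM in mesenchymal cells, a ratio of 4642 (2253 to 11546). Krt14, on the same chromosome at 100203162 to 100207548, had 155 CPM against 0 UMIs. Its ratio was 1063 at the floor of 3 UMIs, and its exact interval starts at 864. Krt8, a keratin of simple epithelia, had 194 and 0.828 CPM, a ratio of 234 (146 to 402). At least 1 Krt15 UMI was found in 83.7% of epithelial cells (95% interval 82.5 to 84.9%) and in 0.206% of mesenchymal cells (0.0827 to 0.423%), and after thinning to 2000 UMIs in 59.9% and 0.0294%. Such a keratin UMI was therefore rare at each depth in the selected mesenchymal cells, from which the rule had removed barcodes with Epcam. The 300 barcodes of the mesenchyme library with Epcam had 228 CPM of Krt15. With whole libraries after the barcode filter, the median log2 ratio of the keratins was 6.48 in place of 8.32.

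Junction genes, whose products seal and anchor neighbouring epithelial cells, followed the same order. All 15 of 26 listed members that reached 20 CPM were at least 2-fold higher in epithelial cells and 14 of them at least 10-fold, with a median log2 ratio of 7.92 against -0.11 for all genes at this level. Perp, a component of desmosomes, had 252 CPM against 2 UMIs in mesenchymal cells, a ratio of 2585 (715 to 21349.8). The tight junction claudins Cldn4 and Cldn6 had 98.0 and 84.5 CPM in epithelial cells against 1 and 2 UMIs in mesenchymal cells, ratios of 2014 (361 to 79571) and 868 (240.0 to 7167). Sfn, the 14-3-3 sigma protein of stratified epithelia, had 211 CPM against 1 UMI, a ratio of 4331 (777 to 171098). Fxyd3, a regulator of the sodium pump, had 201 and 0.243 CPM, a ratio of 827 (354 to 2548). Surface proteases and their inhibitors were epithelial too, 6 of 6 at 20 CPM by 2-fold and 4 by 10-fold, 5 under TMM scaling. The inhibitor Spint2 reached 327 CPM and had 12.2 CPM in mesenchymal cells, a ratio of 26.8 (23.7 to 30.5). The protease matriptase, St14, and its inhibitor Spint1 had 26.7 and 36.4 CPM in epithelial cells and 2 UMIs each in mesenchymal cells, ratios of 274 (75.8 to 2269) and 374 (103 to 3090.4).

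The promoters of these genes were read for the E-box CAGGTG, or CACCTG on the other strand, a site that SNAI and ZEB repressors are known to bind in epithelial promoters. RefSeq windows of the 250 bases before the start site (GRCm38.p6, the mm10 assembly, the window listed earliest for each gene) were matched by symbol for 40 of 57 epithelial and 79 of 117 mesenchymal 10-fold genes, the selecting genes left out. The motif was found in 16 of 40 epithelial promoters (40%) and in 8 of 79 mesenchymal promoters (10.1%). It was found in 12.3% of the 2658 matched genes with at least 50 CPM and in 17.1% of all 27025 genes of the table. The grainyhead-like motif AACCGGTT, which is its own reverse complement, was in 1 epithelial promoter (2.5%), that of Mt2, and in 0 mesenchymal promoters. It was in 0.414% of the matched genes with at least 50 CPM and in 0.122% of all. A match is a run of letters, and binding was not measured. Printed 5′ to 3′ along the gene, with the E-box in capitals, are the windows of Sfn, Cldn4, Krt8 and Lsr, for the epithelial set, Lsr being the gene with 4 matches and named after its values were seen, followed by Aldh1a2, a mesenchymal gene with a match, and Prrx1, a mesenchymal gene with none.
Sfn: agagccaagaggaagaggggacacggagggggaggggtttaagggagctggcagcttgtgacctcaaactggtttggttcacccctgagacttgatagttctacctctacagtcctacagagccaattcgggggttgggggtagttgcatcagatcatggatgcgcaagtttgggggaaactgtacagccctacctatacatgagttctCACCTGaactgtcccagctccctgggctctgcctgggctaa
Cldn4: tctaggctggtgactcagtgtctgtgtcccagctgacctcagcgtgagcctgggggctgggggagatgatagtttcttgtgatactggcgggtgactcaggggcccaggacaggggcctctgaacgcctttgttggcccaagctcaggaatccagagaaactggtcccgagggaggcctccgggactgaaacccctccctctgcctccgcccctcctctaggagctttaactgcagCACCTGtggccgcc
Krt8: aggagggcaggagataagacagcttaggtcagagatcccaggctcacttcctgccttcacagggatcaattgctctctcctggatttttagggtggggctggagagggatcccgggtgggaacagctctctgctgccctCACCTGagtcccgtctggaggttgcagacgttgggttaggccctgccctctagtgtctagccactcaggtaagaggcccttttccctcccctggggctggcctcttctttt
Lsr: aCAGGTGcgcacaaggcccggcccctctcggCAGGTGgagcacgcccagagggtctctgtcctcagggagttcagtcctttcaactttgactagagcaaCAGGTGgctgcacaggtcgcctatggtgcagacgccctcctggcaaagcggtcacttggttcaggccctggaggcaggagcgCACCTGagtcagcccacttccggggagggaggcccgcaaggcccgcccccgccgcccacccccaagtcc
Aldh1a2: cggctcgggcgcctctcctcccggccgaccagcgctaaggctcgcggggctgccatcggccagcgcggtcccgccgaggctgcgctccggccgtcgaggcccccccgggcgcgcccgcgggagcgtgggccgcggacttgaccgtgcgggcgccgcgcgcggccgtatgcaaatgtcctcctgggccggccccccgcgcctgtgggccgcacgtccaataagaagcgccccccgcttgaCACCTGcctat
Prrx1: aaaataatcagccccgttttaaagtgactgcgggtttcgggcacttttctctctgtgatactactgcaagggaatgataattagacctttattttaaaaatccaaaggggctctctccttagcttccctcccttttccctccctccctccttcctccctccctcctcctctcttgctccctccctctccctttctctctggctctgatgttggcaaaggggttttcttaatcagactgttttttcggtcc
The 4 epithelial windows lie at chr4:133602169-133602418 for Sfn, chr5:134946935-134947184 for Cldn4, chr15:102004343-102004592 for Krt8 and chr7:30973470-30973719 for Lsr, all on the minus strand. The E-box ends 35 bases before the start in Sfn, 8 in Cldn4, 105 in Krt8 and 5 in Aldh1a2, and in Lsr the matches end 243, 213, 145 and 63 bases before it. The mesenchymal windows lie at chr9:71215539-71215788 for Aldh1a2 on the plus strand and chr1:163313651-163313900 for Prrx1 on the minus strand. All distances are to the RefSeq start. In GENCODE the Krt8 and Prrx1 genes reach to 102004482 and 163313710, inside their windows, and the Krt8 match lies within that gene. Lsr, a receptor protein of tricellular junctions, had 102 and 5.26 CPM, a ratio of 19.4 (16.02 to 23.7).

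Transcription factors and splicing regulators separated the sides as well. Of 13 listed epithelial splicing and state regulators, 5 reached 20 CPM and all 5 were at least 10-fold higher in epithelial cells. Esrp1, which directs the epithelial splice forms of many transcripts including that of Fgfr2, had 48.3 CPM against 0 UMIs. Its ratio was 330.4 at the floor of 3 UMIs. Trp63, the p63 factor of basal cells, had 64.7 and 0.828 CPM, a ratio of 78.2 (48.7 to 134). Among 15 gland epithelium transcription factors at this level, 14 were 2-fold and 10 were 10-fold higher in epithelial cells. Foxa1, a forkhead factor of gland epithelium, had 35.9 CPM against 0 UMIs, a ratio of 246 at the floor. Tfap2a and Tfap2b, of the AP-2 family, had 73.4 and 108 CPM in epithelial cells and 0.487 and 0.438 CPM in mesenchymal cells, ratios of 151 (81.9 to 315) and 247 (130.2 to 541). Foxc1, a further forkhead factor, had 54.6 and 1.56 CPM, a ratio of 35.1 (24.8 to 51.4). The list was thus epithelial with 1 exception. Barx2, a homeobox factor on chromosome 9 that is not in the list, had 703 and 2.77 CPM, a ratio of 254 (196 to 335). The exception was named after its values were seen. It was Pitx1, a homeobox factor of the oral region, which was 3.09-fold higher in mesenchymal cells, with 194 and 598 CPM.

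Other epithelial genes had no shared list. Mt1 and Mt2, the metallothioneins that bind zinc and copper, had 681 and 312 CPM in epithelial cells and 22.7 and 10.4 CPM in mesenchymal cells. The ratios were 30.0 (27.4 to 33.0) and 30.1 (26.3 to 34.6). Anxa1, a phospholipid-binding annexin, had 237 and 2.53 CPM, a ratio of 93.6 (71.3 to 125). Hpgd, which inactivates prostaglandins, had 121 and 1.61 CPM, a ratio of 75.6 (53.8 to 110.0). Dapl1 had 103 CPM against 1 UMI, a ratio of 2115 (379 to 83563).

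The 2 highest mesenchymal ratios at 100 CPM or more were those of transcription factors of craniofacial mesenchyme. Prrx1, a homeobox factor on chromosome 1 at 163245119 to 163313710, had 3 UMIs in epithelial cells and 476 CPM in mesenchymal cells, a ratio of 5999 (2052 to 29096). Nr2f1, an orphan nuclear receptor, had 1 UMI in epithelial cells and 185 CPM in mesenchymal cells, a ratio of 7011 (1258 to 276983). Gsc and Mab21l2, regulators of head development, had 168 and 133 CPM in mesenchymal cells against 5 and 0 UMIs in epithelial cells. The ratio was 1269 (543 to 3912) for Gsc. For Mab21l2 it was 1682 at the floor, with an exact interval that starts at 1367. Ebf1 and Runx1t1 had 196 and 155 CPM in mesenchymal cells, ratios of 674 (376 to 1351) and 834 (404 to 2077). These factors had between 0 and 11 UMIs in 3549 epithelial cells. Of 24 listed mesenchyme transcription factors at 20 CPM, 19 were 2-fold and 16 were 10-fold higher in mesenchymal cells, with a median log2 ratio of -6.32. Osr1 and Hic1, zinc finger repressors, had 443 and 326 CPM in mesenchymal cells and 0.794 and 0.529 CPM in epithelial cells, ratios of 559 (391 to 828) and 615 (398 to 1008). The 2 that were higher in epithelial cells, named after their values were seen, were Meis1, with 124 and 21.3 CPM, and Foxp1, with 216 and 83.2 CPM.

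All 11 mesenchymal state regulators at 20 CPM were 2-fold higher in mesenchymal cells, 10 under TMM scaling, and 6 were 10-fold higher. Twist1 had 1 UMI in epithelial cells and 60.3 CPM in mesenchymal cells, a ratio of 2278 (408 to 90049.8). The E-box repressors Zeb1 and Zeb2 had 36.7 and 27.4 CPM in mesenchymal cells and 11 and 1 UMIs in epithelial cells, ratios of 126 (70.0 to 253) and 1036 (185 to 40991). Snai2, a further E-box repressor that was named after its values were seen, had 25.3 and 52.1 CPM, a ratio of 2.06 (1.88 to 2.24) that was under 2-fold with TMM scaling. Its RNA was thus present on each side, unlike that of Twist1 and Zeb2.

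Fibrillar and interstitial matrix genes were mesenchymal. Of 11 interstitial collagen genes at 20 CPM, 10 were 2-fold and 9 were 10-fold higher in mesenchymal cells. Col6a1 and Col6a3, chains of type VI collagen, had 72.4 and 88.0 CPM in mesenchymal cells and 1 UMI each in epithelial cells, ratios of 2736 (490.3 to 108147) and 3327 (596 to 131477). The exception was Col14a1, named after its values were seen, with 42.0 CPM in epithelial cells and 0.779 CPM in mesenchymal cells, a ratio of 53.9 (33.1 to 94.5). Type I collagen, the main fibre of connective tissue, followed, with 0.423 and 222 CPM of Col1a1 and a ratio of 524 (322 to 917), and a ratio of 406 (305 to 552) for Col1a2. Of 22 other matrix genes, 19 were 2-fold and 12 were 10-fold higher in mesenchymal cells, and under TMM scaling 13 of 20 were 2-fold higher there and 1 in epithelial cells. The small proteoglycans Lum and Dcn had 398 and 291 CPM in mesenchymal cells against 0.212 and 0.185 CPM in epithelial cells, ratios of 1879 (953 to 4353) and 1572 (763 to 3913). Tnc, tenascin C, had 66.0 CPM against 0 UMIs, at least 831-fold. All 11 matrix remodelling enzymes and inhibitors at 20 CPM were 2-fold higher in mesenchymal cells, 9 under TMM scaling, and 6 were 10-fold higher. Adamts2, the protease that trims procollagen, had 2 UMIs in epithelial cells and 37.4 CPM in mesenchymal cells, a ratio of 707 (195 to 5845).

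The genes of the basement membrane were divided between the tissues. Of 11 members at 20 CPM, 5 were 2-fold higher in epithelial cells, 3 were 2-fold higher in mesenchymal cells and 3 lay within 2-fold, while under TMM scaling the counts were 7, 3 and 3 of 13. The laminin chain Lama5 was epithelial, with 30.1 CPM against 0.341 CPM, a ratio of 88.3 (42.7 to 220.2). The nidogens Nid1 and Nid2, which link laminin to collagen IV, were mesenchymal, with 34.6 and 53.5 CPM against 0.556 and 1.19 CPM, ratios of 62.2 (40.4 to 101) and 44.9 (33.4 to 62.0). Integrin subunits, the receptors of cells for matrix, were also divided. Itga6, the laminin-binding alpha 6 subunit, was higher in epithelial cells with a ratio of 6.71 (5.40 to 8.44). Itga5, the fibronectin-binding alpha 5 subunit, was higher in mesenchymal cells with a ratio of 7.29 (5.91 to 9.07).

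**Figure D2:**
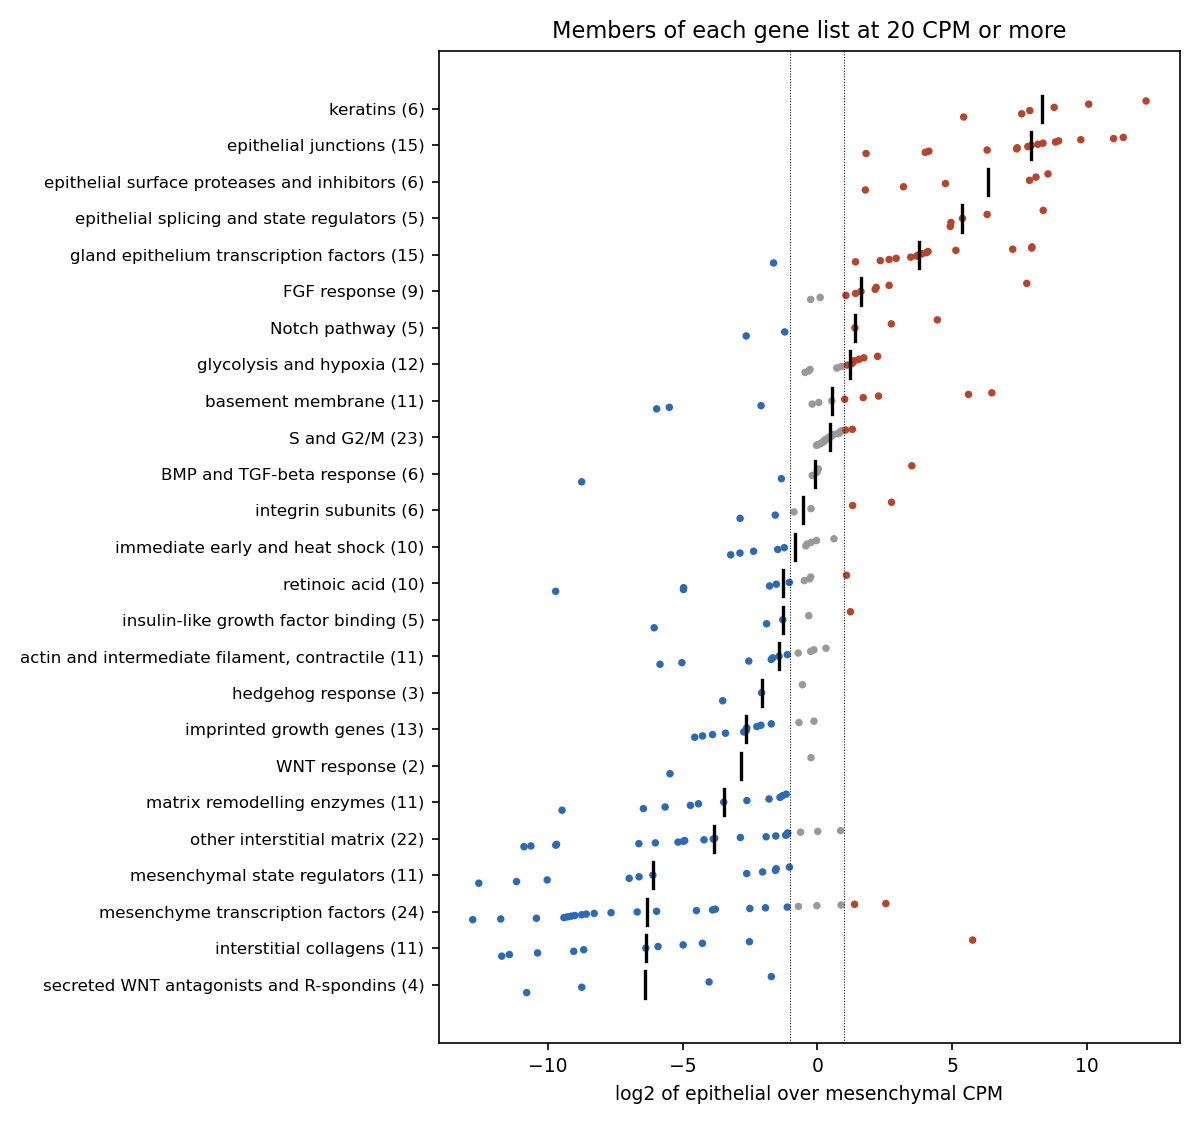
The log2 ratio of epithelial over mesenchymal CPM for every list member with at least 20 CPM on a side, with the number of such members in brackets. Each point is a gene, coloured red or blue past 2-fold (dotted lines) on the epithelial or mesenchymal side, and the bar is the list's median, which ran from -6.38 for secreted WNT antagonists and R-spondins to 8.32 for keratins.

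Ligand genes were then compared. Of 68 ligand genes in the list of pairs, 42 stayed below 20 CPM on both sides, 8 were 2-fold higher in epithelial cells, 12 in mesenchymal cells and 6 lay within 2-fold. The ligands of FGFR2 were mesenchymal. Fgf10, on chromosome 13 at 118669791 to 118792115, had 0 UMIs in epithelial cells and 1349 UMIs or 65.7 CPM in mesenchymal cells. Its ratio was 827 at the floor of 3 UMIs. Fgf7 had 0 UMIs and 29.9 CPM, a ratio of 377 at the floor. Fgf10 was found in 28.6% of mesenchymal cells, and Fgf7 in 14.5%, at a median depth of 5410 UMIs. Each was found in 0 of 3549 epithelial cells at a median of 9912 UMIs, which, at the floor of 3 cells, allows up to 0.0845% of cells with a UMI and sets no limit on cells that express the gene below detection. Fgfr2, their receptor, had 21.9 CPM in epithelial cells and 6.47 CPM in mesenchymal cells, a ratio of 3.38 (2.81 to 4.09). Of 9 FGF response genes at 20 CPM, 7 were 2-fold higher in epithelial cells and 0 in mesenchymal cells. Etv5 and Dusp6, targets and feedback inhibitors of this pathway, had ratios of 6.31 (5.65 to 7.05) and 4.41 (4.09 to 4.76).

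The 8 epithelial ligands were Wnt4, Wnt6, Fgf9, Pdgfa, Pdgfc, Tgfb1, Nrtn and Fam150b. Wnt6 had 99.2 CPM in epithelial cells and 0 UMIs in mesenchymal cells, at least 679-fold, and Wnt4 had 33.5 and 0.682 CPM, a ratio of 49.2 (29.2 to 90.3). Fgf9 had 38.3 and 0.828 CPM, a ratio of 46.2 (28.8 to 79.6). Pdgfa and Pdgfc had 332 and 139.9 CPM in epithelial cells and 11.7 and 11.5 CPM in mesenchymal cells, ratios of 28.3 (24.9 to 32.2) and 12.1 (10.6 to 13.9). Their receptor Pdgfra selected the mesenchymal cells and is no finding, while Pdgfrb, which the selection did not use, had 0.397 and 27.6 CPM, a ratio of 69.4 (41.7 to 125). Fam150b, a ligand of ALK-family receptors, had 359 and 3.55 CPM, a ratio of 101 (80.3 to 129), and its receptors Alk and Ltk were under 0.2 CPM on each side. Nrtn, neurturin, which signals through RET, had 56.1 and 9.20 CPM, a ratio of 6.10 (5.26 to 7.12). Tgfb1 had 21.0 and 2.43 CPM, a ratio of 8.64 (6.49 to 11.7).

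Among mesenchymal ligands, Igf1 had 1.24 and 446 CPM, a ratio of 359 (269.5 to 489), while its receptor Igf1r lay within 2-fold. The chemokine Cxcl12 had 4.68 and 298 CPM, a ratio of 63.6 (54.7 to 74.2). Its receptor Cxcr4 just missed the level used here, at 19.8 CPM in epithelial cells and 0.292 CPM in mesenchymal cells. Bmp4 had 2.28 and 27.7 CPM, a ratio of 12.2 (9.69 to 15.5). The BMP targets Id1 and Id3 lay within 2-fold, with 137 and 375 CPM in epithelial cells and 157 and 366 CPM in mesenchymal cells. Of 6 BMP and TGF-beta response genes at 20 CPM, 1 was 2-fold higher in epithelial cells, 2 in mesenchymal cells and 3 lay within 2-fold. Id4, a further ID protein, was the epithelial gene, with 23.1 and 2.04 CPM, a ratio of 11.3 (8.30 to 15.8). Tgfbi, a matrix protein induced by TGF-beta, was mesenchymal, with 0.212 and 90.3 CPM, a ratio of 427 (216 to 990.3). Gas1, a co-receptor of hedgehog ligands, had 27.9 and 319 CPM, a ratio of 11.4 (10.7 to 12.2) that was under 10-fold with TMM scaling, while Shh itself was at 0.0529 and 0 CPM. All 4 secreted WNT antagonists at 20 CPM were mesenchymal. Dkk2 had 46.4 CPM in mesenchymal cells against 1 UMI, a ratio of 1754 (314 to 69336), and Sfrp2 had 474 and 29.3 CPM in mesenchymal and epithelial cells.

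Of 69 receptor genes, 6 were 2-fold higher in epithelial cells, 20 in mesenchymal cells and 7 within 2-fold, with 36 below 20 CPM. The 20 include the selecting gene Pdgfra, whose side the rule fixed. Under TMM scaling 12 were higher in mesenchymal cells, Pdgfra among them. The neuropilin Nrp2, a receptor of semaphorins, had 0.106 and 302 CPM, a ratio of 2854 (1114 to 10476). Ntrk2, the receptor of the neurotrophin BDNF, had 0.159 and 112 CPM, a ratio of 707 (324 to 1929), and Bdnf itself was at 1.22 CPM in mesenchymal cells. Epha3, an ephrin receptor, had 1 UMI in epithelial cells and 105 CPM in mesenchymal cells, a ratio of 3978 (713 to 157206). In the opposite direction, Erbb3 and Fzd6 had ratios of 9.68 (7.34 to 13.02) and 37.0 (21.5 to 69.8) in favour of epithelial cells. Among 93 ligand and receptor pairs, those of Pdgfra are left aside because it selected the cells. Then 4 pairs had the ligand 2-fold higher on 1 side and the receptor 2-fold higher on the other. Fgf7 and Fgf10 with Fgfr2 ran from mesenchyme to epithelium. Fgf9 with Fgfr1 and Wnt6 with Fzd7 ran from epithelium to mesenchyme, but not under TMM scaling. Fgfr1 and Fzd7 were near the limit, with log2 ratios of -1.06 and -1.26, which became -0.76 and -0.95 under TMM scaling. Levels of RNA do not show that a ligand reached a receptor.

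**Figure D3:**
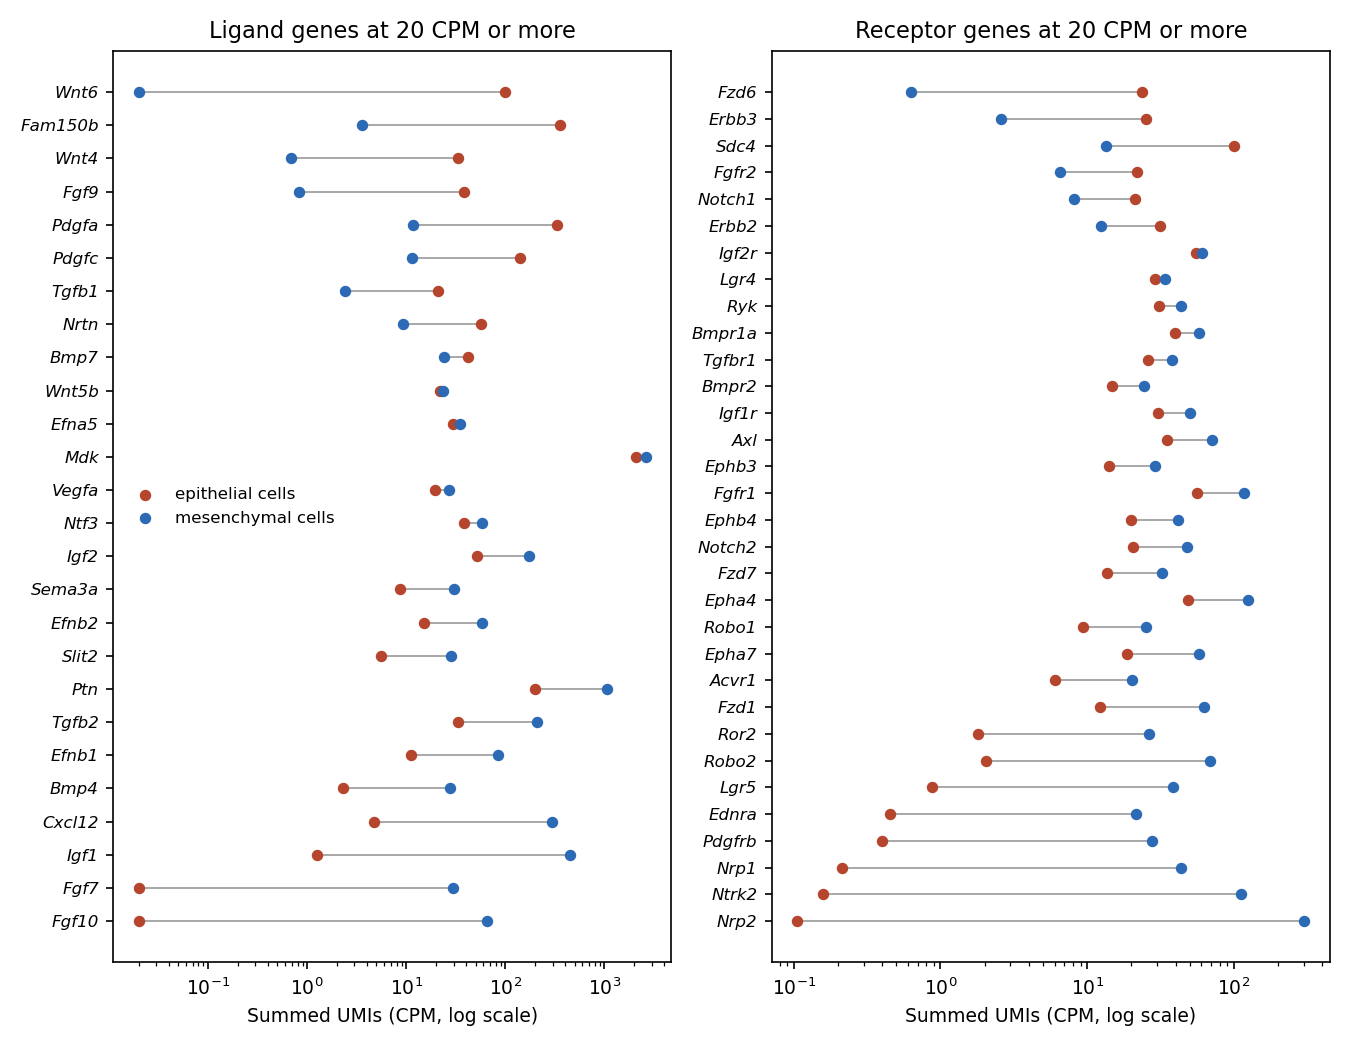
CPM in epithelial (red) and mesenchymal (blue) cells for ligand genes on the left and receptor genes on the right that reached 20 CPM on a side, log scale, with the selecting gene Pdgfra left out. Genes at 0 UMIs are drawn at 0.02 CPM, and the lines join the sides of a gene. The largest gaps among ligands are those of Wnt6 on the epithelial side and Fgf10 on the mesenchymal side, each with 0 UMIs on the other.

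Retinoic acid and Notch genes were also unequal. Aldh1a2, which makes retinoic acid, had 0.212 and 176 CPM, a ratio of 834 (423 to 1933), and Rdh10, which supplies its substrate, had a ratio of 31.1 (25.7 to 38.1) in favour of mesenchymal cells. Of 10 retinoic acid genes at 20 CPM, 6 were 2-fold higher in mesenchymal cells, 5 under TMM scaling, and 1 was higher in epithelial cells. The Notch targets Hes1 and Hey1 were epithelial, with 594 and 64.7 CPM against 88.9 and 2.97 CPM, ratios of 6.68 (6.37 to 7.01) and 21.8 (16.9 to 28.6). Dlk1, a Notch ligand-like protein, was mesenchymal, with 331 and 2064 CPM.

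Imprinted growth genes, which are expressed from a single parental copy, were mesenchymal as a group. All 13 listed genes reached 20 CPM, 11 were 2-fold and 4 were 10-fold higher in mesenchymal cells, and 0 were higher in epithelial cells, with 11 and 3 under TMM scaling. Cdkn1c, the p57 inhibitor of cyclin-dependent kinases, had 437 CPM in epithelial cells and 10217 CPM in mesenchymal cells, a ratio of 23.4 (23.0 to 23.8). Mest had 156 and 1656 CPM, a ratio of 10.6 (10.3 to 10.9), and the growth regulator Plagl1 had 23.0 and 340.4 CPM, a ratio of 14.8 (13.8 to 15.9). The non-coding RNAs H19 and Meg3 had 264 and 769 CPM in epithelial cells and 1253 and 4776 CPM in mesenchymal cells. Igf2r and Grb10 lay within 2-fold. The group was thus higher in mesenchymal cells apart from these 2 genes, which were named after their values were seen. Cdkn1c was found in 90.4% of epithelial and 99.9% of mesenchymal cells, and after thinning in 54.4% and 99.6%. Outside this list the galectin Lgals1 had 39.8 and 2273 CPM, a ratio of 57.1 (54.2 to 60.1), the membrane protein Itm2a had 57.1 and 2107 CPM, a ratio of 36.9 (35.3 to 38.6), and vimentin, Vim, had 25.9 and 843 CPM, a ratio of 32.5 (30.5 to 34.7).

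Genes of glycolysis and hypoxia leaned to the epithelium. Of 12 at 20 CPM, 7 were 2-fold higher in epithelial cells, 9 under TMM scaling, and 0 in mesenchymal cells. Ldha, lactate dehydrogenase A, had 1173 and 249.97 CPM, a ratio of 4.69 (4.56 to 4.83). Of 23 S and G2/M genes, 2 were 2-fold higher in epithelial cells, 7 under TMM scaling, and 21 lay within 2-fold, with Rrm2 at a ratio of 2.45 (2.37 to 2.54). Of 10 immediate early and heat shock genes, which can respond to dissociation, 5 were 2-fold higher in mesenchymal cells, 4 under TMM scaling, and 5 lay within 2-fold. Fos and Jun had 174 and 131 CPM in epithelial cells and 898 and 958 CPM in mesenchymal cells, ratios of 5.15 (5.01 to 5.30) and 7.32 (7.10 to 7.56), and their part in the other differences was not tested. Xist, the RNA of the inactive X chromosome in females, had 262 and 1004 CPM, while the Y-linked Ddx3y and Eif2s3y had 24.9 and 27.7 CPM in epithelial cells and 28.1 and 26.2 CPM in mesenchymal cells.

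The genes varied within each side. Leiden clustering gave 11 epithelial and 14 mesenchymal clusters, which are numbered and not named. The clusters were made from these same genes, and the 10-fold genes were chosen by the sums of these same cells, which favours separation by cluster. Levels and counts by cluster are therefore a description, and the share over all genes was not computed. Of the 53 named epithelial 10-fold genes, 40 were higher in every epithelial cluster than in any mesenchymal cluster, and of the 115 mesenchymal genes 85 were higher in every mesenchymal cluster than in any epithelial cluster. The highest own cluster exceeded the lowest by a median of 4.90 times for epithelial genes and 15.04 times for mesenchymal genes, without 13 of the 115 that were at 0 in their lowest own cluster and have no ratio. These ranges include small clusters, with 5, 32 and 26 cells, in which endothelial markers summed to 3130 CPM, neural crest and neuron markers to 827 and 755 CPM, and skeletal muscle markers to 2354 CPM.

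Krt15 ran from 94.8 CPM in epithelial cluster 6 to 7004 CPM in cluster 10, and every epithelial cluster was above the highest mesenchymal value of 2.40 CPM. Krt14 ran from 57.1 to 515 CPM and was also highest in cluster 10. Krt8 and Sfn were highest in cluster 4, at 736 and 1059 CPM, and Krt6a and Grhl3 were among the leading genes of that cluster. Sox10, a factor of the end bud, was between 31.7 and 68.9 CPM in clusters 2, 3, 5, 6, 7, 8 and 11 and at most 8.59 CPM in clusters 1, 4, 9 and 10, in which Krt15 was at least 1688 CPM. Wnt6 was highest in cluster 10 at 392 CPM and lowest at 11.2 CPM. Barx2 was even, from 548 to 805 CPM, though the mesenchymal cluster of 26 cells with muscle markers had 122 CPM. Cluster 11, with 74 cells, had a median mitochondrial share of 0.0884% and held the haemoglobin-rich barcode.

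Prrx1 ranged from 57.5 CPM in mesenchymal cluster 13 to 629 CPM in cluster 1, and the highest epithelial cluster had 0.768 CPM. Lum ranged from 23.0 to 1050 CPM, highest in cluster 9. Col1a2 ranged from 115 to 856 CPM, and Igf1 from 38.3 to 674 CPM. Fgf10 was highest in cluster 3 at 160 CPM and was at 0 in at least 1 cluster, and Fgf7 was highest in cluster 6 at 56.0 CPM. Lgr5, a receptor of R-spondins, was highest in cluster 8 at 162 CPM. Cdkn1c was between 2643 and 16538 CPM in mesenchymal clusters and between 274.9 and 627 CPM in epithelial clusters.

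**Figure D4:**
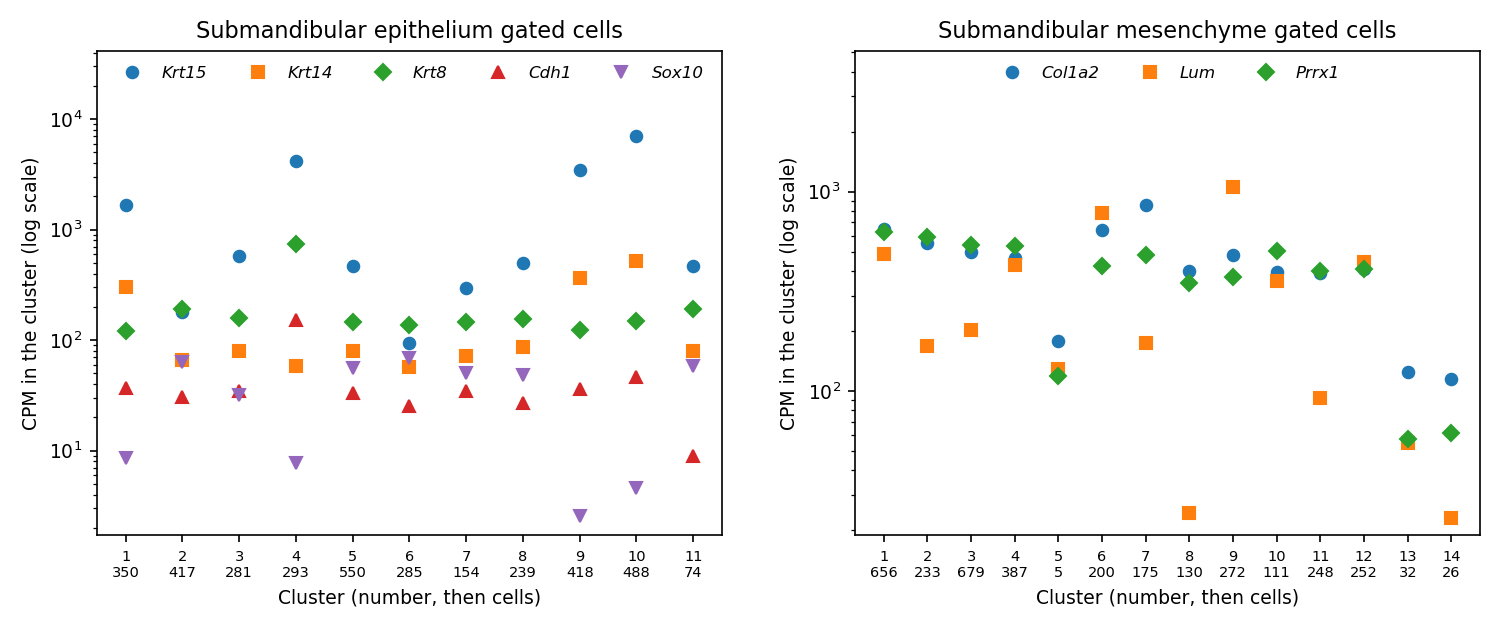
CPM of 5 epithelial genes in the 11 epithelial clusters on the left and of 3 mesenchymal genes in the 14 mesenchymal clusters on the right, log scales, with the number of cells under each cluster number. Each point is the summed UMIs of a cluster. Krt15 and Krt14 are high in clusters 1, 9 and 10, where Sox10 is at most 8.59 CPM, and Krt8 is highest in cluster 4 at 736 CPM.

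The same selection was applied to the parotid gland of the same stage, with 1491 epithelial and 3501 mesenchymal cells, to see which differences a second gland shared. Of the 58 epithelial 10-fold genes, 37 were also 10-fold in the parotid, which is 63.8% of the submandibular and 51.4% of the 72 parotid genes, and 56 were at least 2-fold the same way. Of the 119 mesenchymal 10-fold genes, 53 were 10-fold in the parotid, or 44.5% of the submandibular and 50% of the 106 parotid genes, and 108 were at least 2-fold the same way. These counts include the selecting genes. The 10-fold genes were 1.68% and 3.45% of the 3445 submandibular genes at 50 CPM. Of the 310 epithelial and 450 mesenchymal submandibular genes at 2-fold, 155 and 243 were at least 2-fold the same way in the parotid. The parotid share over all genes was not computed, so the overlap is only described. With 1 library of each kind no difference between glands was tested.

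Hpgd and Fam150b were the 2 epithelial genes that were not 2-fold the same way in the parotid. Hpgd had 7.61 CPM in parotid epithelial and 15.5 CPM in parotid mesenchymal cells, and Fam150b had 29.5 and 52.4 CPM. Among the 11 such mesenchymal genes, the nuclear receptor Nr5a2 had 1 UMI and 90.3 CPM in submandibular epithelial and mesenchymal cells, against 0 and 0.180 CPM in the parotid. Maf, a leucine zipper factor, had 2.94 and 183 CPM against 1.99 and 0.901 CPM, and Plagl1 had 8.30 and 8.07 CPM in the parotid. The other 8, named after their values were seen, were Sat1, Gpm6b, Tnik, Negr1, Igfbp7, Timp3, Meox1 and Arl4a.

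Some gene groups differed between the glands in size. The 13 imprinted genes had a median log2 ratio of -2.63 in the submandibular gland and -0.32 in the parotid, where Cdkn1c had 542 and 1708 CPM in epithelial and mesenchymal cells and H19 had 375 and 469 CPM. The junction genes had medians of 7.92 and 7.83, and the mesenchymal state regulators -6.10 and -6.33. For these lists the sides lay about as far apart in the parotid, as they did for epithelial splicing and state regulators, at 5.37 and 5.46. Other lists differed more, such as mesenchyme transcription factors at -6.32 and -3.03 and interstitial collagens at -6.36 and -4.78. Keratins were further apart in the parotid, at 8.32 and 9.93. The median of the 5 insulin-like growth factor binding genes changed sign, from -1.28 to 1.16. That parotid median is the value of Igfbp7, which had only 36 and 31 UMIs there, or 3.11 and 1.40 CPM. List members were taken by their submandibular level, which by itself can leave parotid ratios smaller. Foxa1 had 35.9 CPM in submandibular epithelial cells and 0.0865 CPM in parotid epithelial cells. Fgf10 had 65.7 CPM in submandibular and 14.2 CPM in parotid mesenchymal cells, while Fgfr2 had 21.9 and 53.4 CPM in the epithelial cells of the glands. Xist had 510 and 19.5 CPM in parotid epithelial and mesenchymal cells, against 262 and 1004 CPM in the submandibular gland. Whether the sex of the pooled embryos moves with these differences was not tested.

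**Figure D5:**
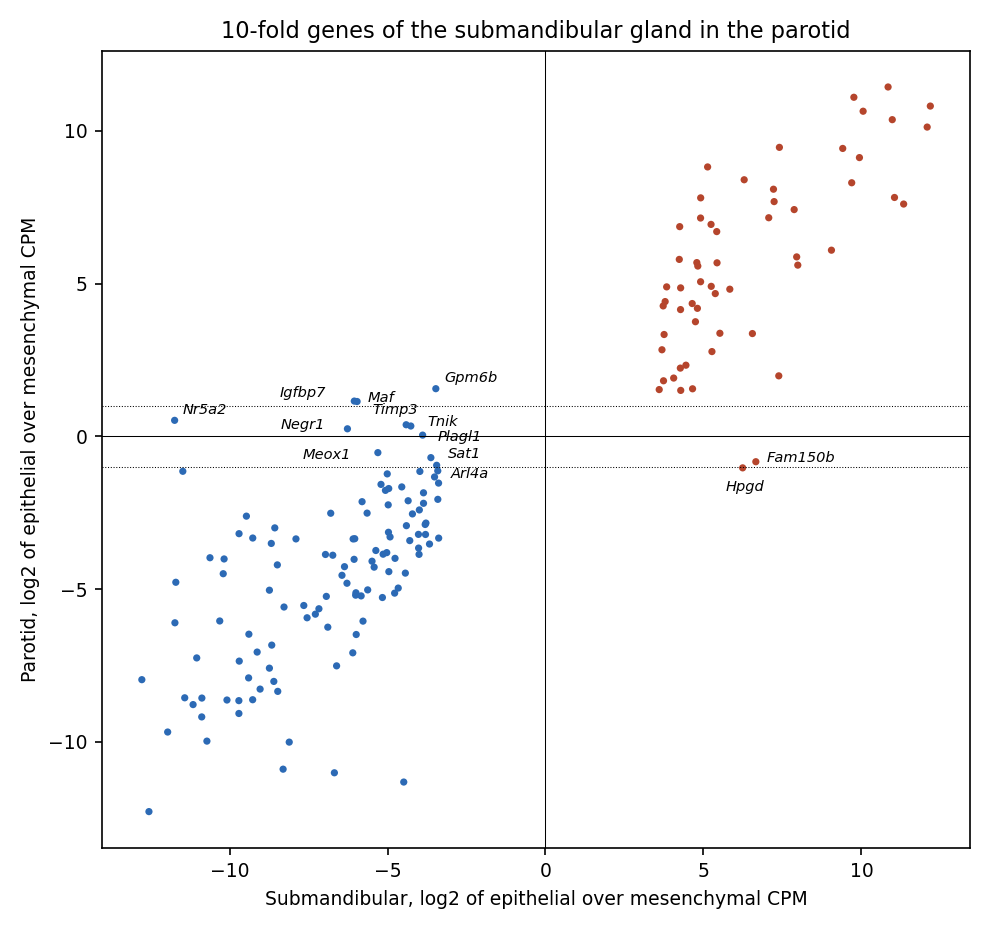
The log2 ratio of epithelial over mesenchymal CPM of the submandibular 10-fold genes (x axis) and of the same genes in the parotid gland (y axis), with the selecting genes left out. Each point is a gene, red for epithelial and blue for mesenchymal genes, dotted lines mark 2-fold in the parotid, and a gene at 0 UMIs on a side is computed against 3 UMIs. The labelled genes are the 2 epithelial and 11 mesenchymal genes that were not 2-fold the same way in the parotid.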

How the data were processed

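Droplet libraries were counted with Cell Ranger 2.1.1 against mm10, per the submitters' processing notes, and the deposited values are counts of UMIs per gene and barcode, with 27998 genes. They were used as deposited. Filters and thresholds are those named above, and the selecting rule, the 26 gene lists and the list of pairs were chosen with earlier results of these data known. UMIs were summed per side and divided by that side's total, haemoglobin and mitochondrial genes included. Intervals are exact Poisson for CPM, exact conditional binomial for ratios and Clopper-Pearson for shares, all at 95%, and they cover counting error only. A gene with 0 UMIs on a side was set to a floor of 3 UMIs, and no submandibular ratio was given below 20 CPM on both sides. Parotid ratios and medians are of the same genes at whatever level they had there. Genes were named by rule: the 12 highest ratios each way at 100 CPM or more, the 8 highest CPM each way among 10-fold genes, up to 4 members of each list by size of ratio, all ligands and receptors, and genes at least 4-fold in opposite directions in the glands. No doublet caller was run and doublets were not removed. Sequencing batches are not given in the sources used here, and each side is a library of its own, so library and tissue cannot be told apart.

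Clusters were made with scanpy 1.11.5 (2000 variable genes, 30 components, 15 neighbours, resolution 0.8). TMM factors came from edgeR 4.0.16 and no test was run. The ratio code was checked on simulated data. Promoters came from a RefSeq table of GRCm38.p6 and gene positions from GENCODE on GRCm38, where 251 of 251 named IDs were matched. Alternatives were other cell selections, depths, scalings, levels and floors. The promoters of Cdh1, Krt15 and Esrp1 were not used here, and results of some genes are not reported here.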

Additional observations from a re-analysis of the deposited data

Results flagged for a closer look

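The genes below were at least 2-fold or 4-fold higher in 1 tissue of the submandibular gland and in the other tissue of the parotid. The 2-fold rule asked for at least 50 CPM on a side in each gland, and the 4-fold rule in the submandibular gland only. With no parotid level, 3 epithelial and 8 mesenchymal submandibular 2-fold genes were 2-fold the other way in the parotid, so the genes below are not all of them. The difference between the glands was not tested, since each group is 1 library. The values below are the log2 ratio of epithelial over mesenchymal CPM in the submandibular gland minus that in the parotid.

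Phlda2, an imprinted growth regulator, had 6.30 and 53.4 CPM in the submandibular gland and 17.6 and 3.79 CPM in the parotid, a difference of -5.30. The parotid values of Phlda2 rest on 203 and 84 UMIs.

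At 2-fold, Tmem59l had 56.1 and 14.8 CPM in the submandibular gland and 9.69 and 74.3 CPM in the parotid, a difference of 4.86. Cd59a, which protects cells from complement, had 12.5 and 54.7 CPM against 52.8 and 14.1 CPM, a difference of -4.04. The proteoglycan Vcan had 41.1 and 88.3 CPM against 104 and 51.5 CPM, a difference of -2.12, and its submandibular log2 ratio of -1.10 is near 2-fold. Tmem59l, Cd59a and Vcan were named after their values were seen.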

How the results depend on the processing

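No paired analysis was possible because each tissue is 1 library and no test was run. At a level of 20 CPM in place of 50, the 10-fold counts were 138 epithelial and 250 mesenchymal genes and the 2-fold counts 568 and 1077. At 200 CPM they were 13 and 31, and 71 and 91, with 2 epithelial and 4 mesenchymal ligands and 0 epithelial and 1 mesenchymal receptors. Under TMM scaling, which gave factors of 0.901 and 1.11, the 2-fold counts were 561 and 290 and 12 receptors were mesenchymal. The gland transcription factor list, positive otherwise, had a median log2 ratio of -1.63 at 200 CPM, where Pitx1 alone was left. Acta2 went from -2.55 to 1.58 without cells that carried markers of another class. That selection left 2285 epithelial and 3172 mesenchymal cells and gave 303 and 433 genes at 2-fold and 70 and 122 at 10-fold, all with at least 50 CPM. Cartilage markers gave 3 or more UMIs in 1149 epithelial cells, and neural crest and glia markers in 345. The cartilage sum was between 219 and 279 CPM in epithelial clusters 2, 3, 5, 6, 7 and 8, where Sox10 was high. It was at most 105 CPM in clusters 1, 4, 9 and 10, and 87.0 CPM in cluster 11, although Sox10 was 58.0 CPM there. Whether the cells left out were of another type was not tested. Leaving out cells with few mitochondrial UMIs or much haemoglobin, an alternative chosen after seeing the data, gave 311 and 449 at 2-fold. Of 154 named genes past 2-fold, at most 7 fell under it in any alternative, namely with whole libraries and with TMM scaling. Many of these genes were named by the size of their ratio, so this count cannot show that the ratios were stable. Across the alternatives, 550 log2 ratios of genes were scored as moved, 1 as reversed and 1525 as the same. Among median log2 ratios, 121 were scored as moved, 1 as reversed and 211 as the same. With 1 library a side, depth limits genes below 20 CPM, and differences between embryos were not measured.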
